A study of Mus musculus with 9 samples.

Results

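Of 43346 genes in the deposited count table, 22032 were protein coding, and 27 of these were near silent in aged sham fibroblasts and on in aged bleo fibroblasts. A gene was taken as near silent when each of the 4 aged sham libraries held 10 reads or fewer on it, and as on when each of the 5 aged bleo libraries held 30 reads or more. The genes were thus chosen by the same read counts that are described below, and no test of the difference between the groups is given for them. There were 6607 protein-coding genes at 10 reads or fewer in each aged sham library, and the 27 made up 0.409% of them.

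The study asked why lung fibrosis persists in old mice, and the libraries analysed here are of fibroblasts from aged Col1a1-GFP mice, which were male and on an FVB background. The mice were 72 weeks old by the sample labels, and received saline (aged sham) or bleomycin (aged bleo), a drug that injures the lung and provokes fibrosis, once through the trachea. On day 30, the lungs were digested and cells positive for GFP and negative for CD45 (hematopoietic cells), CD31 (endothelial cells), and EpCAM (epithelial cells) were sorted straight into lysis buffer. GFP in these mice is driven by the collagen I promoter, so the sort holds cells in which that promoter is or recently was active, and both groups carry the same transgene. Young mice were not analysed here.

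Fibroblasts build and remodel the collagen-rich matrix of the lung. In fibrosis they multiply, contract, and lay down matrix in excess, and some of them switch on genes that the healthy lung hardly uses, among them genes known from cartilage and bone. Skeletal matrix forms when cells secrete collagens together with acidic phosphoproteins that bind mineral, under the control of the transcription factors Runx2 and Sp7, and BMP and Wnt ligands with their secreted antagonists set where this happens.

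Total counts ran from 49921946 to 62370512 over the aged sham libraries and from 53833507 to 68260600 over the aged bleo ones. Levels across libraries are given as CPM, counts scaled to library size with TMM factors. The limit of 10 reads corresponded to 0.161 to 0.201 CPM in aged sham, and the limit of 30 reads to 0.409 to 0.604 CPM in aged bleo, the lowest of these in aged bleo 4, the deepest library. No 2 libraries of a group were duplicates, since the chi-square of their counts was at least 28.7 per degree of freedom. Marker genes of cells that the sort should remove were present, at sums that in part exceeded that of the 27 genes. The summed CPM was 104 to 394 in aged sham and 112 to 613 in aged bleo for 7 pan-leukocyte genes, 314 to 460 and 741 to 2004 for 15 macrophage genes, 171 to 1030.1 and 98.0 to 926 for 8 neutrophil genes, 164 to 202 and 26.7 to 71.4 for 7 endothelial genes, and 138 to 243 and 80.8 to 162 for 13 alveolar epithelial genes. Mast cell and basophil genes summed to 4.31 to 11.3 CPM in aged sham and 12.1 to 29.8 CPM in aged bleo. Of these genes, 4 of 5 tested were called higher by edgeR, beside 12.3% of all genes tested. The part of such cells in the levels below was not tested. In bulk libraries such as these, fewer cells of a type and less RNA per cell cannot be told apart.

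Together the 27 genes held 83 to 131 reads in each aged sham library and 3711 to 11528 in each aged bleo library. Summed over the genes, the level was 2.11, 2.00, 2.39, and 1.67 CPM in aged sham 1 to 4, and 95.6, 65.9, 104, 157, and 161 CPM in aged bleo 1 to 5. Lrrc15 alone gave 20.99% to 41.6% of the aged bleo sums, and without it the sums lay between 44.9 (aged bleo 2) and 108 CPM (aged bleo 4). In 10 of the 27 genes at least 1 aged sham library held no read, and 4 genes had 3 reads or fewer over all 4 aged sham libraries, namely Shisa6 and Cdh15 with 2 and Ntn5 and Dspp with 3. All 27 genes also passed the filter on the average count (25), and all 27 were on the higher side of the calling thresholds, where 12.3% of all 16877 genes tested were. The rule used this same contrast, so that count was fixed by the choice and nothing is read from it. In all 27 every aged bleo library lay above every aged sham library in CPM, which held for 16.1% of all genes tested. The limits on reads fixed this as well, since 10 reads were at most 0.201 CPM in aged sham and 30 reads at least 0.409 CPM in aged bleo. Nothing is read from it either.

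**Figure D1:**
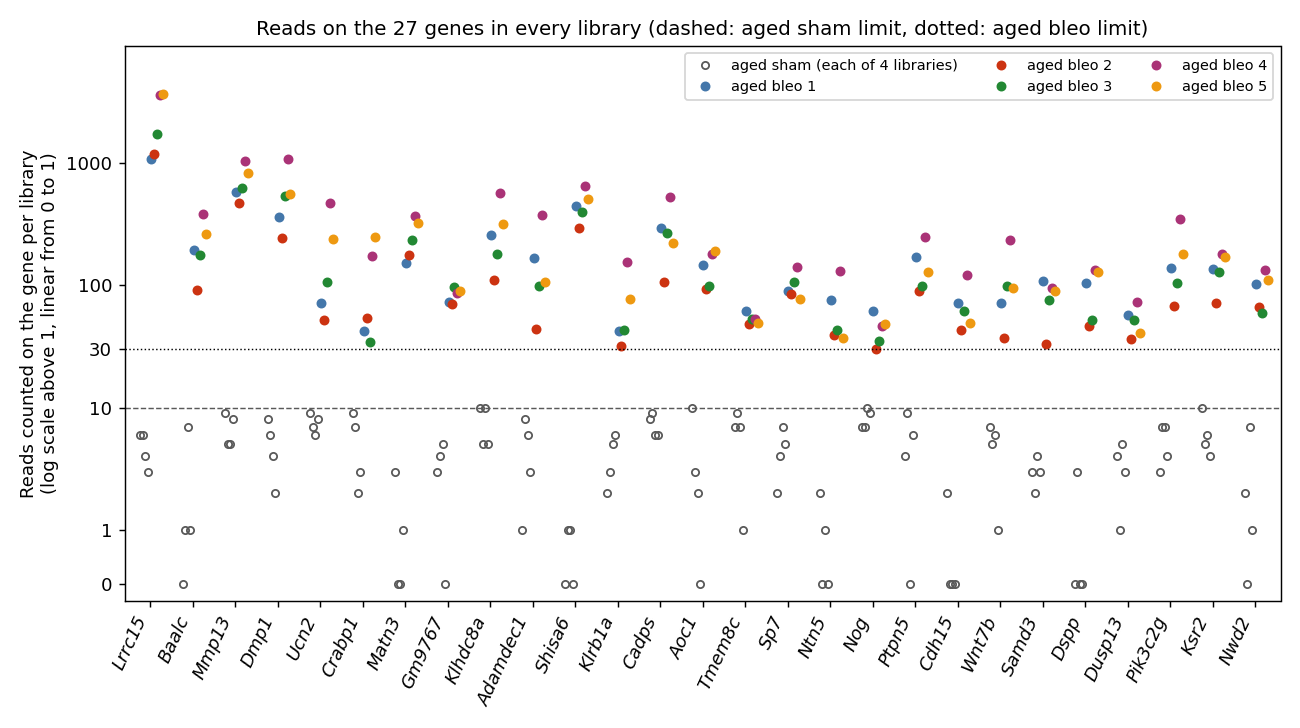
Reads counted on each of the 27 genes (x axis, in order of aged bleo FPKM) in each library (y axis, log scale above 1), with open circles for the 4 aged sham libraries and colored circles for the 5 aged bleo libraries. The aged sham circles lie between 0 and 10 reads and the aged bleo circles between 30 and 3664, and no gene has a value between the lines, because the lines are the limits that chose the genes.

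On after bleomycin did not mean abundant. Levels between genes are compared per transcript length, in the FPKM values deposited by the authors, and the mean aged bleo level ran from 0.0667 FPKM for Nwd2 to 3.08 FPKM for Lrrc15, with a median of 0.335 FPKM over the 27 genes. The median over all tested genes was 2.15 FPKM. Only Lrrc15, Baalc, Mmp13, Dmp1, Ucn2, and Crabp1 reached a mean of 1 FPKM. Lrrc15 was above 57.0% and Mmp13 above 43.5% of the tested protein-coding genes, whereas Nwd2 was above 2.22%. The exonic length in the table, by which FPKM is divided, ran from 635 bases for Baalc to 13590 bases for Ksr2, with a median of 2906. The place of Baalc depends on that length, since its exons in GENCODE M21 cover 4141 bases, over which the same reads would give a lower level. The same holds for Cadps, with 5573 bases in the table and 15054 in M21.

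**Figure D2:**
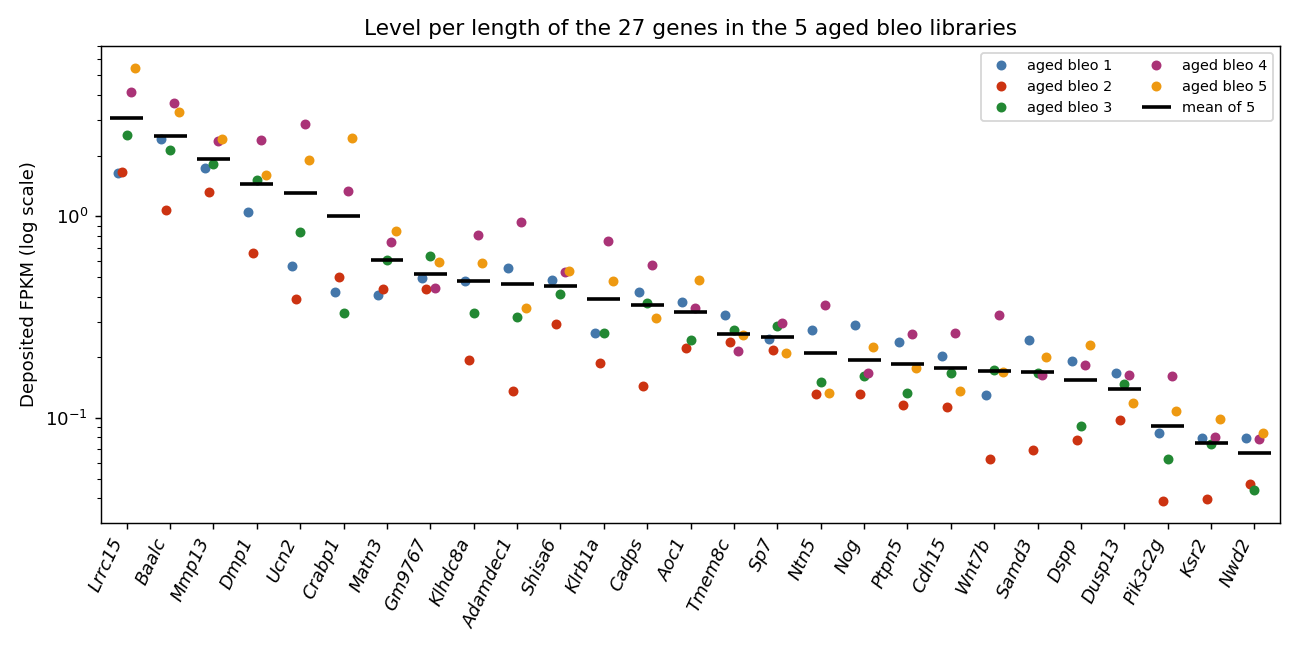
Deposited FPKM (y axis, log scale) of the 27 genes in the 5 aged bleo libraries (colored circles), with the mean as a black bar. The means run from 3.08 FPKM for Lrrc15 on the left to 0.0667 for Nwd2 on the right, and circles of aged bleo 2 lie lowest for most genes.

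The 27 genes are described by their known function, and were sorted into such groups after their names had been seen. The first group is known from cartilage, bone, and tooth and held Dmp1, Dspp, Matn3, and Sp7, to which Mmp13 and Nog, known from growth plate and joint, may be added. Dmp1 (chromosome 5, 104202617 to 104214102, GRCm38) encodes dentin matrix protein, an acidic phosphoprotein of osteocytes and dentin. It had 8, 6, 4, and 2 reads in aged sham 1 to 4, and 6.71, 4.33, 10.0, 14.8, and 10.2 CPM in aged bleo 1 to 5. Aged bleo 4 was the highest and aged bleo 2 the lowest of these, 3.41 times apart, and the mean was 1.44 ± 0.655 FPKM (SD, n = 5). Over the pooled reads the ratio of aged bleo to aged sham was 105, with an interval of 68.2 to 173, where this and the other intervals of ratios are exact 95% intervals that cover counting error only.

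Dspp (chromosome 5, 104170712 to 104180127) encodes dentin sialophosphoprotein, of the same family of mineral-binding phosphoproteins. Aged sham 2 held 3 reads on it and the other aged sham libraries none. Its levels in aged bleo 1 to 5 were 1.95, 0.817, 0.970, 1.80, and 2.34 CPM, so that aged bleo 2 and 3 lay below the other 3 libraries. Dspp and Dmp1 are neighbors, 22.5 kb apart with no other listed gene wholly between them. On the scale per length, however, Dspp at 0.154 ± 0.0662 FPKM (SD, n = 5) was far below Dmp1.

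Sp7 (chromosome 15, 102356609 to 102366325), also called osterix, encodes a zinc finger factor that osteoblasts need for their differentiation. Aged sham libraries held 2 to 7 reads on it. Its level was 1.65, 1.51, 1.98, 1.91, and 1.41 CPM in aged bleo 1 to 5, which was the narrowest spread of the 27 genes, with a coefficient of variation of 14.6%, where counting error alone gives 10.0%. The 5 libraries were thus close together, and aged bleo 2 and 4 did not stand apart as they did for Dmp1. Matn3 (chromosome 12, 8947929 to 8972028) encodes matrilin-3, an adaptor protein of cartilage matrix. It had 3, 0, 0, and 1 reads in aged sham 1 to 4, and 2.82, 3.12, 4.37, 5.02, and 5.91 CPM in aged bleo 1 to 5. Aged bleo 1 and 2 were the low libraries and aged bleo 5 the high one, and the pooled ratio was 238 with an interval of 92.7 to 874.

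The windows around the transcription starts of the best measured members of this group are shown, so that what precedes the start sites of these genes can be read. Each runs from 250 bases before to 50 bases after a start site, is taken from RefSeq on GRCm38.p6, and is written 5′ to 3′ on the gene's own strand. Capitals mark the letters TATAAA (the TATA box), TGACTCA or TGAGTCA (the AP-1 site), TGGAAA or TTTCCA (the core of NFAT sites), and CAGACA or TGTCTG (the SMAD box). The TATA box was searched on the gene's own strand only, and the other letters on both strands.
Dmp1, chr5:104202367-104202666 (plus strand): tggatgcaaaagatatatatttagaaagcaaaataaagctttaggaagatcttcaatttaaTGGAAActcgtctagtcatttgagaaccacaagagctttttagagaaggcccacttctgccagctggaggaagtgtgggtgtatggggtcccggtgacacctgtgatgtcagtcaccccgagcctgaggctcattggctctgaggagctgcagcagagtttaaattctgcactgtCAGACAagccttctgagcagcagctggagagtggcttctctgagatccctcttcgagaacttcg
Matn3, chr12:8947679-8947978 (plus strand): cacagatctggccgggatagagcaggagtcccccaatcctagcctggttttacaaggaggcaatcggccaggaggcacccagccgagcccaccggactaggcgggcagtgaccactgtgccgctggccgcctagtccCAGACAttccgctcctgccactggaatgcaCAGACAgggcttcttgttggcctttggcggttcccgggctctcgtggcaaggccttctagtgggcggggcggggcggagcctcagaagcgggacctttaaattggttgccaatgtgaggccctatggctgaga
Mmp13, chr9:7272264-7272563 (plus strand): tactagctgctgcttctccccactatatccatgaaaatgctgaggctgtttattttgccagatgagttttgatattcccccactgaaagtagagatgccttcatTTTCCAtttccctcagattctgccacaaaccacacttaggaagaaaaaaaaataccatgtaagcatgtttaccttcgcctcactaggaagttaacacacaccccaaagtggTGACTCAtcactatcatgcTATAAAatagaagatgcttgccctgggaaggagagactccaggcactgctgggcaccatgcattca
Dmp1 has a further RefSeq start upstream, whose window holds none of these letters. In the Dmp1 window shown, the NFAT core begins 189 and the SMAD box 14 bases before the start site, and Matn3 has a pair of SMAD boxes at 113 and 83 bases. The Mmp13 window holds an NFAT core at 146, an AP-1 site at 35, and a TATA box at 16 bases before the start. These are matches of letters and were not tested as binding sites.

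To set these genes in their pathway, a list of 28 cartilage and bone matrix genes was examined, of which 3 are among the 27 and 17 others passed the filter for testing. Of these 17, 7 were higher and 3 lower in aged bleo by edgeR's quasi-likelihood test (FDR under 0.10 by the Benjamini-Hochberg procedure over all genes tested, and a fold change over 1.5), beside 12.3% of all tested genes on the higher side and 11.5% on the lower side. Their median log2 fold change was 0.44, against 0.0064 over all genes. Ibsp, which encodes bone sialoprotein of the same phosphoprotein family as Dmp1, rose from 0.232 ± 0.211 CPM (SD, n = 4) to 39.4 ± 2.63 CPM (SD, n = 5), a log2 fold change of 7.37 (SE 0.43, edgeR FDR 1.48e-05). It missed the limit on aged sham reads, with 31 reads in aged sham 2 and 11 in aged sham 3. Col10a1, the collagen of hypertrophic cartilage, rose from 0.185 ± 0.0566 to 20.1 ± 10.2 CPM (log2 fold change 6.72, SE 0.48, edgeR FDR 3.23e-05), and Col11a1, a minor fibrillar collagen of cartilage, from 0.233 ± 0.0915 to 60.8 ± 11.5 CPM (log2 fold change 8.05, SE 0.27, edgeR FDR 1.65e-06). Both had up to 14 or 17 reads in an aged sham library and so just missed the limit. Runx2, which acts upstream of Sp7 in bone formation, was already at 5.63 ± 2.01 CPM in aged sham and rose to 44.4 ± 16.3 CPM (log2 fold change 2.98, SE 0.35, edgeR FDR 4.22e-04).

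Acan, Col9a2, and Cilp2 made up the rest of the 7 higher genes, and Sox9, Omd, and Epyc were the lower ones. Sox9, the master regulator of cartilage, fell from 32.9 ± 7.48 to 16.0 ± 4.99 CPM (log2 fold change -1.04, SE 0.24, edgeR FDR 0.0101). Several genes of the list that are known from mature bone and cartilage cells had few reads in both groups, and not all such genes are named here. Bglap, the osteocalcin gene, had 3 reads or fewer in every library, Mepe 10 or fewer, and Hapln1 5 or fewer, while Col2a1, the main collagen of cartilage, had 7 to 31 reads. These genes were below the filter and were not tested.

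**Figure D3:**
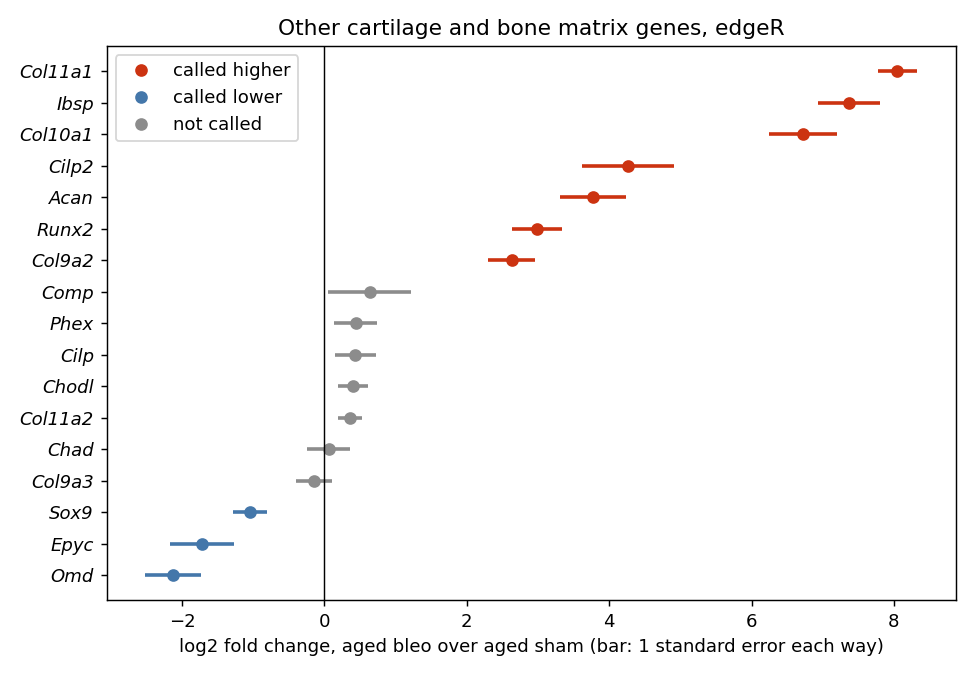
Log2 fold change of aged bleo over aged sham (x axis) for the 17 tested cartilage and bone matrix genes that are not among the 27, with bars of 1 standard error each way. The 7 genes called higher (red) lie between 2.63 for Col9a2 and 8.05 for Col11a1, and the 3 called lower (blue) between -2.12 for Omd and -1.04 for Sox9.

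Lrrc15 (chromosome 16, 30269302 to 30283256) encodes a membrane protein with leucine-rich repeats that is known from activated fibroblasts of tumors and inflamed joints. It was the most abundant of the 27 per length. Aged sham libraries 1 to 4 held 6, 6, 4, and 3 reads on it. In aged bleo 1 to 5 it stood at 20.1, 20.9, 32.2, 48.7, and 67.0 CPM, with aged bleo 4 and 5 well above the other 3, and the pooled ratio was 448 with an interval of 287 to 745. The spread of 53.0% was 25.1 times what counting gives, the widest gap of all 27 genes. Its promoter window is shown because Lrrc15 is the member with the most reads.
Lrrc15, chr16:30283205-30283504 (minus strand): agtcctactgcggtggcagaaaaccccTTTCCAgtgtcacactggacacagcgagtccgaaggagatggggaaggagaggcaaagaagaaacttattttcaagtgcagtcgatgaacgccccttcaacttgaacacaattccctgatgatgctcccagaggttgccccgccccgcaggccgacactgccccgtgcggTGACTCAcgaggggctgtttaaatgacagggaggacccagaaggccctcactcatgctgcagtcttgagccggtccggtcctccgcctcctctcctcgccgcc
It holds an NFAT core 223 bases and an AP-1 site 53 bases before the start.

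Lrrc15 belongs to a list of 12 genes of fibrotic fibroblasts, and of the 11 others 10 were higher and 1 lower in aged bleo by edgeR, beside 12.3% and 11.5% of all genes tested. None of the 11 was near silent in aged sham. Grem1, a BMP antagonist, came nearest with 2.24 ± 0.461 CPM in aged sham, against 452 ± 185 CPM in aged bleo (log2 fold change 7.65, SE 0.43, edgeR FDR 1.23e-05). Cthrc1, a secreted protein of collagen-producing cells, rose from 14.7 ± 1.56 to 211 ± 109.6 CPM (log2 fold change 3.84, SE 0.40, edgeR FDR 2.24e-04). Fap, a membrane protease, was the 1 lower gene, with 34.0 ± 7.69 CPM before and 19.7 ± 4.67 CPM after bleomycin (log2 fold change -0.79, SE 0.20, edgeR FDR 0.0158).

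Both metalloproteases among the 27 are secreted. Mmp13 (chromosome 9, 7272514 to 7283333), whose promoter is given above, encodes collagenase-3, which cuts fibrillar collagen and is used in growth plate and bone remodeling. Its aged sham reads were 9, 5, 5, and 8. Its aged bleo levels were 10.8, 8.38, 11.6, 14.1, and 14.98 CPM, or 1.93 ± 0.465 FPKM (SD, n = 5), so the highest and lowest libraries were only 1.79 times apart. Adamdec1 encodes decysin, an ADAM-like protease known from macrophages and intestine. It had 1 to 8 reads in aged sham and 3.12, 0.781, 1.85, 5.07, and 1.96 CPM in aged bleo 1 to 5, a 6.49-fold range, in which aged bleo 4 was high and aged bleo 2 low. A list of 15 macrophage genes summed to 314 to 460 CPM in aged sham and to 741, 1000.4, 795, 2004, and 1162 CPM in aged bleo 1 to 5, with 9 of the 15 genes called higher (12.3% of all genes tested), none at 0 in any library, and aged bleo 4 the highest. The part of these cells in the level of Adamdec1 was not tested.

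By edgeR, 5 of the 17 other matrix metalloproteinases that could be tested were called higher and 2 lower, beside 12.3% and 11.5% of all genes tested, and the latter count was 4 without aged bleo 2 or without aged bleo 4. Of those called higher, Mmp10 was the nearest to the limit, with 5 to 19 reads in aged sham, and rose from 0.180 ± 0.108 to 7.28 ± 1.68 CPM (log2 fold change 5.32, SE 0.39, edgeR FDR 3.79e-05). Mmp12, the macrophage elastase, rose from 0.484 ± 0.140 to 47.3 ± 17.1 CPM (log2 fold change 6.61, SE 0.35, edgeR FDR 1.23e-05). Mmp12 is also on the macrophage list above, and the part of macrophages in its level was not tested. The others called were Mmp14, Mmp15, and Mmp28 on the higher side and Mmp16 and Mmp27 on the lower side. The call of Mmp15 (log2 fold change 0.66, edgeR FDR 0.0251) was lost without aged sham 4 or aged bleo 3, at log2 fold changes of 0.53 and 0.58. Mmp2, a gelatinase, at 1163 CPM before and 1388 CPM after bleomycin, was not called (log2 fold change 0.26, SE 0.20, edgeR FDR 0.344).

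Secreted signals were the next group. Wnt7b (chromosome 15, 85535439 to 85581821) encodes a Wnt ligand that acts in lung growth and bone formation. It had 7, 5, 6, and 1 reads in aged sham 1 to 4, and 1.32, 0.657, 1.83, 3.19, and 1.72 CPM in aged bleo 1 to 5. The value in aged bleo 4 was 4.86 times that in aged bleo 2. Of 18 other Wnt ligands and secreted antagonists, 5 were higher and 5 lower by edgeR, beside 12.3% and 11.5% of all genes tested, and their median log2 fold change was -0.0061. Wnt10a was the ligand among the 5 higher ones, from 0.186 ± 0.0503 to 15.7 ± 5.41 CPM (log2 fold change 6.37, SE 0.36, edgeR FDR 1.23e-05), and it missed the limit with 16 reads in aged sham 1. The other 4, Sfrp2, Dkk2, Wif1, and Frzb, encode antagonists. The lower 5 were the ligands Wnt2b, Wnt10b, and Wnt11 and the antagonists Sfrp4 and Sost.

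Nog encodes noggin, which binds and blocks BMPs. It was the least separated of the 27, with 7, 7, 10, and 9 reads in aged sham 1 to 4, and 61, 30, 35, 46, and 48 reads in aged bleo 1 to 5. Its pooled ratio was 5.06 with an interval of 3.50 to 7.54, and aged bleo 2 sat on the limit of 30. Of 21 other BMP, GDF, and activin ligands and antagonists, 7 were higher (Bmp5, Bmp7, Gdf11, Inhba, Inhbb, Grem1, and Fst) and 5 lower (Bmp6, Gdf7, Gdf10, Chrd, and Chrdl1) by edgeR, beside 12.3% and 11.5% of all genes tested. Their median log2 fold change was 0.18. The calls of Gdf7 (log2 fold change -0.70, edgeR FDR 0.0609) and Gdf10 (log2 fold change -0.97, edgeR FDR 0.0605) were lost when single libraries were left out: that of Gdf7 without any one of the 4 aged sham libraries, aged bleo 4, or aged bleo 5, at log2 fold changes from -0.73 to -0.57, and that of Gdf10 without aged sham 1, 2, or 4 or aged bleo 5, at -0.97 to -0.81.

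Ucn2 encodes urocortin-2, a peptide hormone of the corticotropin-releasing factor family. It had 9, 7, 6, and 8 reads in aged sham, and 1.32, 0.923, 2.00, 6.39, and 4.39 CPM in aged bleo 1 to 5. Aged bleo 4 and 5 were well above the rest, and the coefficient of variation was 77.3%. The gene begins 1288 bases after the end of Col7a1 on the same strand. Col7a1, the collagen of anchoring fibrils, rose from 5.57 ± 2.00 to 382 ± 178 CPM (log2 fold change 6.10, SE 0.47, edgeR FDR 5.01e-05), and its aged bleo levels, 256, 179, 370.1, 628, and 475 CPM, put the libraries in the same order as Ucn2. That order was not particular to this pair, since Klrb1a and the sum of the mitosis and cytokinesis list, both given below, had it too. Whether transcripts that run past the end of Col7a1 add to the reads on Ucn2 was not tested. Ntn5 encodes a protein of the netrin family. It had 2, 0, 1, and 0 reads in aged sham and 1.39, 0.692, 0.802, 1.79, and 0.677 CPM in aged bleo 1 to 5, with aged bleo 1 and 4 above the others. Of its 2216 exonic bases, 519 overlap exons of Sec1 on the other strand, and Sec1 itself held 1 or 2 reads in each aged sham library and 15 to 66 in aged bleo. The library kit does not mark strand, so reads in that stretch cannot be given to either gene.

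Genes known from skeletal muscle made up a small group with means of 0.261 FPKM for Tmem8c, 0.177 for Cdh15, and 0.139 for Dusp13. Tmem8c, whose present symbol is Mymk, encodes myomaker, the membrane protein that lets myoblasts fuse. It had 7, 9, 7, and 1 reads in aged sham 1 to 4, and 1.13, 0.852, 0.989, 0.723, and 0.896 CPM in aged bleo 1 to 5. These 5 values differed by 1.22 times the counting error, the least of the 27 genes. Cdh15 encodes M-cadherin, an adhesion molecule of muscle precursor cells. Its only aged sham reads were the 2 in aged sham 1, and its aged bleo levels were 1.34, 0.763, 1.14, 1.66, and 0.896 CPM. Dusp13 encodes a dual-specificity phosphatase of muscle and testis, and stood at 0.639 to 1.06 CPM in aged bleo. A list of 14 striated muscle genes, mostly of the contractile apparatus, summed to 84.5 to 122 CPM in aged sham and to 47.0 to 192 CPM in aged bleo, with overlap. Of its 7 tested genes, Ryr1 was called higher and Tnnt3 lower, beside 12.3% and 11.5% of all genes tested. Among the aged bleo libraries the list was lowest in aged bleo 4, which was also the lowest for Tmem8c and the highest for Cdh15. Ckm, Myh4, and Myl1, which are defining genes of mature fibers, had 30 reads or fewer in every library. The part of muscle cells in the levels of these members was not tested.

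Several members are known from neurons or from regulated secretion. Shisa6 (chromosome 11, 66211725 to 66525964) encodes an accessory protein of AMPA receptors, and had the largest pooled ratio of the 27. Aged sham 2 and 3 held 1 read each and aged sham 1 and 4 none. In aged bleo 1 to 5 its level was 8.29, 5.17, 7.33, 8.79, and 9.16 CPM, which are 291 to 645 reads. The ratio was 864 with an interval of 239 to 7138.6, so its size rests on 2 reads. The spread of 20.6% was among the smaller ones. Cadps encodes a protein that primes dense-core vesicles for release. It had 6 to 9 reads in aged sham and stood at 5.45, 1.90, 4.98, 7.12, and 4.01 CPM in aged bleo 1 to 5.

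Baalc encodes a small cytoplasmic protein of brain that is also expressed in acute leukemia. It had 0, 1, 7, and 1 reads in aged sham 1 to 4, and 3.57, 1.63, 3.27, 5.15, and 4.81 CPM in aged bleo 1 to 5, so aged sham 3 stood apart from the other aged sham libraries and aged bleo 2 from the other aged bleo libraries. Ptpn5 encodes a tyrosine phosphatase of the striatum, and was at 1.60 to 3.37 CPM in aged bleo. Nwd2, a NACHT and WD repeat gene of brain, was at 1.10 to 2.03 CPM, the lowest of the 27 per length.

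Intracellular signaling and metabolism were represented by single genes. Crabp1 encodes a cytosolic carrier of retinoic acid and had the widest spread of the 27, a coefficient of variation of 89.2%. Its aged sham reads were 9, 7, 2, and 3, and its aged bleo levels 0.781, 0.959, 0.634, 2.37, and 4.55 CPM. Aged bleo 5 was 7.18 times aged bleo 3, and the first 3 libraries lay together well below the other two. Pik3c2g, a class II phosphoinositide kinase, stood at 2.55, 1.21, 1.96, 4.69, and 3.26 CPM, and Ksr2, a scaffold of the Ras to MAP kinase pathway, at 2.51, 1.28, 2.41, 2.44, and 3.11 CPM. Both are very long transcripts, and Ksr2 was among those nearest the aged sham limit, with 10 reads in aged sham 1. Aoc1 encodes diamine oxidase, which breaks down histamine and putrescine. It had 10, 3, 2, and 0 reads in aged sham and 2.71, 1.65, 1.83, 2.44, and 3.49 CPM in aged bleo.

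Klrb1a encodes a lectin-like receptor of natural killer cells. It had 2, 3, 5, and 6 reads in aged sham, and 0.781, 0.568, 0.802, 2.13, and 1.41 CPM in aged bleo 1 to 5, with aged bleo 4 highest. A list of 11 T and NK cell genes summed to 7.23 to 19.2 CPM in aged sham and to 4.24, 13.9, 24.5, 67.1, and 15.02 CPM in aged bleo 1 to 5. Aged bleo 4 was thus the highest for both, and the lowest library was aged bleo 1 for the list and aged bleo 2 for Klrb1a. None of the 11 genes was at 0 in every library. Of the 8 genes of that list that were tested, Gzmb and Il7r were called higher and none lower, beside 12.3% and 11.5% of all genes tested. The part of such cells in the level of Klrb1a was not tested.

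The remaining 3 members are little characterized. Klhdc8a encodes a kelch domain protein, and with 10, 5, 10, and 5 reads in aged sham and 4.74, 1.97, 3.38, 7.68, and 5.78 CPM in aged bleo it was among the better measured members. Samd3 encodes a protein with a sterile alpha motif, and stood at 2.01, 0.586, 1.42, 1.30, and 1.65 CPM in aged bleo. Gm9767 is a predicted gene of 1193 bases on chromosome 10, 26078255 to 26079447, and was at 1.36, 1.24, 1.81, 1.17, and 1.63 CPM. Of its bases, 798 lie over exons of Tmem200a on the other strand. Tmem200a rose from 0.899 ± 0.157 to 17.8 ± 4.10 CPM (log2 fold change 4.30, SE 0.23, edgeR FDR 1.18e-05), and reads over the shared bases cannot be given to either gene. Gm9767 and Samd3 lie 150 kb apart with no other listed gene wholly between them.

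The 5 aged bleo libraries did not contribute evenly. Aged bleo 2 was the lowest library for 19 of the 27 genes and above the mean of the 5 for none, and its median level was 0.554 of each gene's own mean. Aged bleo 4 was the highest for 12 genes and aged bleo 5 for 9, with medians of 1.28 and 1.18 of the own mean, and aged bleo 1 and 3 lay between at 1.07 and 0.886. This order was not particular to the 27. Among the 1207 protein-coding genes called higher in the same range of CPM, 67.3% were lowest in aged bleo 2, against 70.4% of the 27, and 54.2% were highest in aged bleo 4, against 44.4%. Over all 8651 other protein-coding genes tested in that range, which include the 1207, 28.1% were lowest in aged bleo 2. The share highest in aged bleo 4 was 34.2%. The exceptions for aged bleo 4 were Tmem8c, Gm9767, Nog, and Samd3, for which it was below the mean of the 5 libraries.

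**Figure D4:**
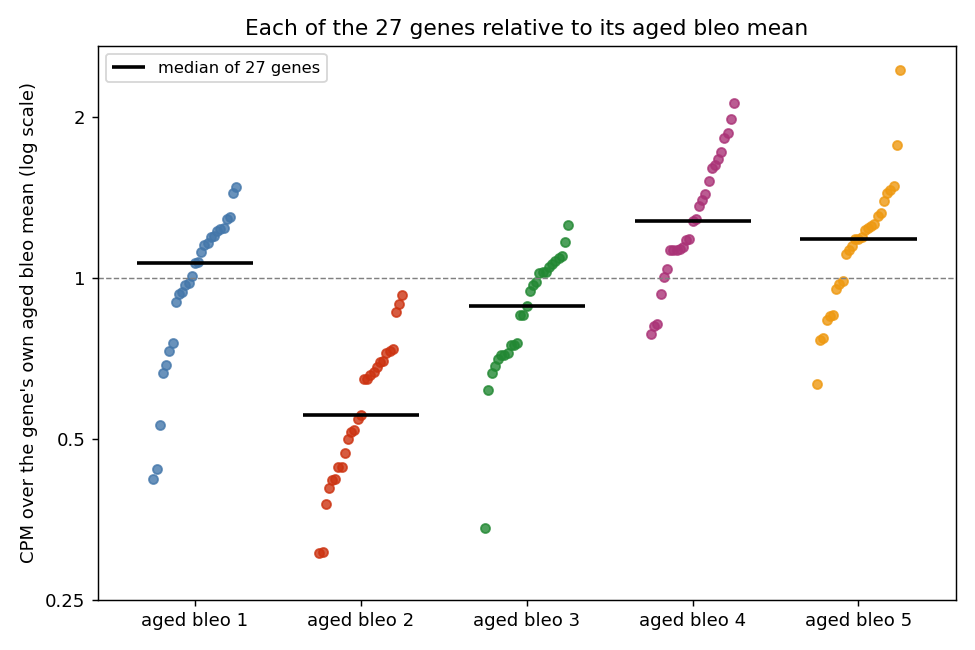
CPM of each of the 27 genes divided by that gene's mean over the 5 aged bleo libraries (y axis, log scale), by library, with a black bar at the median of the 27 genes. The median is 0.554 in aged bleo 2 and 1.28 in aged bleo 4, and all circles of aged bleo 2 lie below 1.

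The median coefficient of variation over the 5 aged bleo libraries was 37.8%, and it ranged from 14.6% for Sp7 to 89.2% for Crabp1. Counting alone gives a median of 8.54%, and the spread was more than 3 times the counting error for 20 genes and less than 1.5 times for 3 genes, Tmem8c, Sp7, and Dusp13. Without aged bleo 2 the median fell to 26.4%. For the 8651 tested protein-coding genes in the same range of CPM the median was 16.7%, and for those of them called higher 29.0%. That range ran from a mean of 0.765 CPM in aged bleo (Nog) to 37.8 CPM (Lrrc15). Lrrc15 alone set its upper end, since Mmp13 came next at 12.0 CPM and the median member had 2.35 CPM. The comparison genes were thus not matched to the members in level. Whether the members varied more than genes of their own level was not tested. After Crabp1, the widest spreads were those of Ucn2 (77.3%), Adamdec1 (63.9%), Klrb1a (55.9%), and Wnt7b (53.4%). Crabp1 was highest in aged bleo 5 and the other 4 in aged bleo 4.

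Aged bleo 4 and 5 differed from the other aged bleo libraries in more than these genes. A list of 24 mitosis and cytokinesis genes summed to 229, 123, 315, 789, and 718 CPM in aged bleo 1 to 5 and to 58.6 to 167 CPM in aged sham, with 23 of the 24 genes called higher by edgeR, beside 12.3% of all genes tested. In 4 of the 24 every aged bleo library lay above every aged sham library, which held for 16.1% of all genes tested. Its lowest aged bleo library was aged bleo 2 and its highest aged bleo 4, as for the median of the 27 genes. The macrophage and T and NK cell sums given above also peaked in aged bleo 4, but aged bleo 2 was not their lowest library. The cartilage and bone list, by contrast, summed to 508, 461, 462, 321, and 414 CPM in aged bleo 1 to 5 and was lowest in aged bleo 4. The part of any of these in the levels of the 27 genes was not tested.

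**Figure D5:**
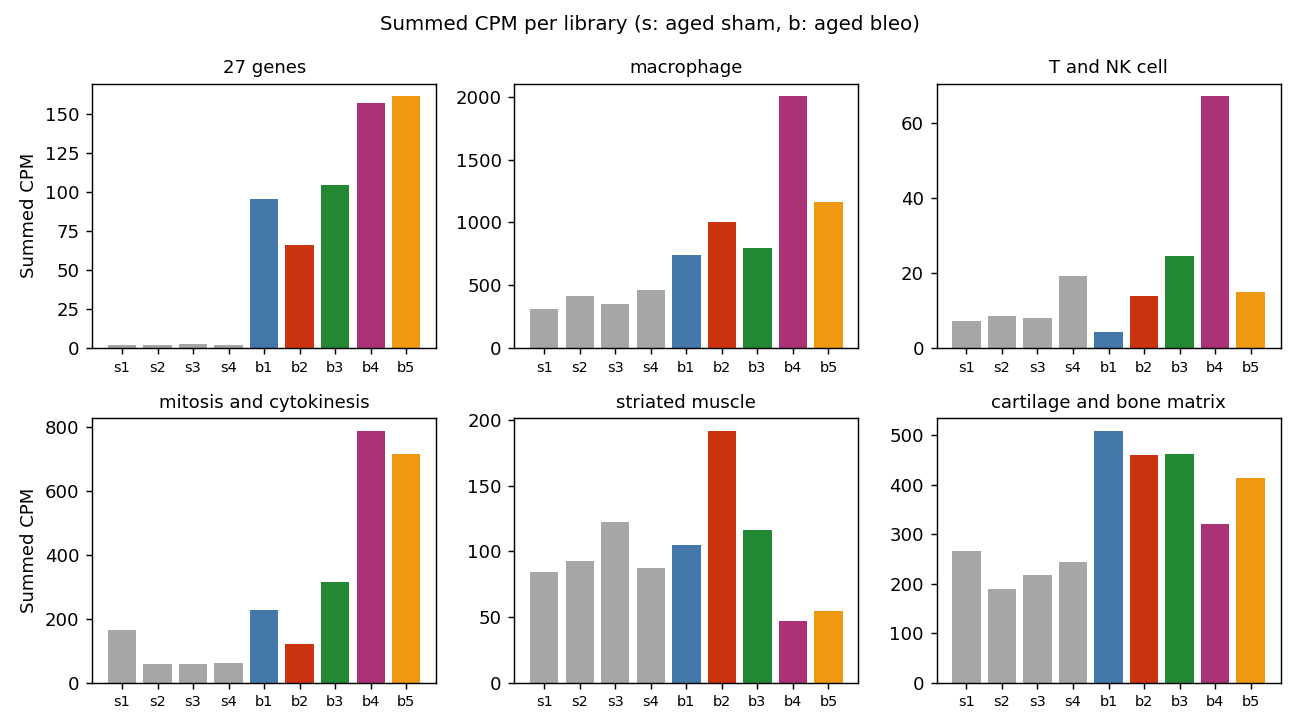
Summed CPM per library (y axis, each panel with its own scale from 0) for the 27 genes and for 5 marker lists, with aged sham (s1 to s4) in grey and aged bleo (b1 to b5) in color. The 27 genes and the mitosis list are highest in aged bleo 4 and 5 and lowest among the aged bleo libraries in aged bleo 2, while the striated muscle and the cartilage and bone sums are lowest among them in aged bleo 4.

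The 27 genes were spread over 13 chromosomes, with at most 4 on one, chromosome 5. No collagen, keratin, solute carrier, ion channel, interleukin, or chemokine was among them by symbol, and each of the families found had 1 member, such as Mmp13 of 23 matrix metalloproteinases and Cdh15 of 84 cadherins and protocadherins. RefSeq promoter windows were at hand for 18 of the 27 genes, in 25 windows. Their median GC content was 53.7% (range 36.0% to 75.3%) against 57.0% over all 20167 windows, and their median number of CG dinucleotides 5 against 14. The AP-1 letters were found for 4 of the 18 genes (Mmp13, Lrrc15, Aoc1, and Dusp13), or 22.2%, against 5.42% of all 16522 genes with a window. The NFAT core was found for 22.2% against 21.9%, the SMAD box for 22.2% against 21.002%, and the TATA box for 5.56% against 9.42%. These shares describe letters in a window of 300 bases and were not tested.

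Values near the limits show how the rule cut. Inside, Aoc1, Klhdc8a, and Ksr2 reached 10 reads in an aged sham library, and Nog, Klrb1a, and Samd3 came down to 30, 32, and 33 reads in aged bleo 2. Just outside, Amn and Slco4a1 reached 11 reads and Fhl5 12 reads in an aged sham library, although they had at least 85, 114, and 82 reads in aged bleo. On the other side, Murc, Acot12, and Grin2a had a lowest aged bleo count of 26, 25, and 24. The mirror of the rule, at most 10 reads in each aged bleo library and at least 30 in each aged sham library, was met by 1 protein-coding gene, Fgf5, a fibroblast growth factor, with 36 to 44 reads in aged sham and 5 to 10 in aged bleo.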

How the data were processed

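Gene-level RNA-Seq values of lung fibroblasts sorted from Col1a1-GFP mice (aged sham, 4 libraries, and aged bleo, 5 libraries) were analysed, and all 9 libraries were used. The authors prepared the libraries from polyadenylated RNA with a kit that does not mark strand. The submitters' processing notes name bcl2fastq, STAR 2.5.2b, Subread, featureCounts, and the builds mm10 and GRCm38, and whether counting used strand is not given in the sources used here. The authors deposited raw read counts per gene, without normalization, and FPKM values, which they divided by gene length and by a library size that was 2.27 to 2.42 times the summed counts. Of the identifiers shared with GENCODE M21, 78.8% had the same start and end there, so coordinates are given as GRCm38.

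The 27 genes, their grouping, and the gene lists were chosen with earlier results of these data known. All members were named, because there were no more than 30, and other genes as members of a list, as neighbors, or at the limits of the rule. Counts were TMM-scaled to CPM. The 16877 genes whose counts averaged 25 or more were tested by the quasi-likelihood test of edgeR 4.0.16 in R 4.3.3, and a gene was called at a Benjamini-Hochberg FDR below 0.10 with a change above 1.5-fold. The paper used a moderated test with the same thresholds. Alternatives were DESeq2 1.42.0, limma 3.58.1 on log2 CPM and on log2(FPKM + 0.1) or log2(FPKM + 1), RLE or library size scaling, no filter, other count limits, a replicate block, and each library left out. The fit was tested on simulated data. The ratios use pooled reads over scaled library totals, with exact conditional intervals (scipy 1.17.1) that cover counting error only. A read count of 0 allows up to 3 reads, or 0.0409 to 0.0604 CPM.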

Additional observations from a re-analysis of the deposited data

Results flagged for a closer look

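In 3 of the 54 groups of 4 or 5 libraries tested for a sample apart from the others, 1 aged sham library stood out by Dixon's criterion. Chance flags about 1 in 20 such groups when values are normally distributed, a rate that need not hold for counts near 0. Aged sham 3 had 7 reads on Baalc, where the other aged sham libraries had 0 or 1. The only aged sham reads on Cdh15 were the 2 in aged sham 1, and the only ones on Dspp the 3 in aged sham 2. Where a single library holds all the reads, the criterion is at its largest whatever their number. All 3 values are within the count limit that chose the genes.

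Rows of other biotypes met the same limits on reads and were outside the protein-coding set. Gm16000, an antisense RNA on chromosome 3, had 4 to 10 reads in aged sham and a mean of 1.85 ± 0.509 CPM (SD, n = 5) after bleomycin. Mir711, a microRNA row inside Col7a1, had 1 read over all aged sham libraries and a mean of 1.60 ± 0.770 CPM after bleomycin, and reads of Col7a1 and of Mir711 in that stretch cannot be told apart.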

How the results depend on the processing

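The number of genes that met the rule depended on its limits. At most 5 aged sham and at least 60 aged bleo reads left 3 genes (Gm9767, Matn3, and Shisa6), and at most 15 and at least 20 gave 69, which held all 27. With the limits on TMM-scaled counts 25 were left, without Klhdc8a and Nog, and with any 1 library left out 27 to 38. Leaving out 1 aged bleo library put the median coefficient of variation between 26.4% (without aged bleo 2) and 41.4%. Genes called by limma on log2(FPKM + 1) were 960 higher and 825 lower, against 2082 and 1940, and the cause was not tested. With 1 library left out, the number of other matrix metalloproteinases called lower ranged from 2 to 4 (4 without aged bleo 2 or 4) and that of BMP, GDF, and activin genes from 3 to 5 (3 without aged sham 1, 2, or 4 or aged bleo 5). Of 637 repeats over 49 other genes named from the lists, 624 kept direction and call, 13 lost the call, and none reversed. Those 13 were for Gdf7, Gdf10, and Mmp15.

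Replicate numbers are shared between the groups, but libraries with the same number did not deviate together (correlations 0.09, 0.06, -0.13, and 0.33 for numbers 1 to 4), and only aged sham 4 correlated best with its own number. With the number as a replicate block, 1822 genes were called higher and 1714 lower, and Gdf7 lost its call (log2 fold change -0.68).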
